A study of Mus musculus with 13 samples.

Results

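*Myf5*, *Myf6*, *Myod1* and *Myog* make up the MyoD family of myogenic regulators and were taken by name as 4 of 22329 mouse protein-coding genes that could be placed on calls of pericentromere-associated domains (PADs). Each gene was placed by its body and by the midpoint of its longest transcript on mm9, and its call, its domain, its neighbours and its distance to the nearest domain border were read in 4 cell types. Sat4C, a chromosome conformation capture assay with the major satellite repeat as viewpoint, sequences DNA fragment ends that were ligated to pericentromeric repeats. A PAD is a run of fragment ends that a 2-state hidden semi-Markov model assigned to the state with more such ligations, and the runs between PADs are non-PADs. A call was given for 399232 fragment ends on 20 chromosomes, and neighbouring ends were 2.89 kb apart in the median.

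Thymus was primary tissue of adult male C57BL/6 mice, with 3 mice and 6 sets of reads. The other cells were cultured lines, with 3 replicates of embryonic stem cells (ESC) of the line IB10 (strain 129/ola). Neural precursor cells derived from these ESC (NPC) and astrocytes derived from the NPC (AC) had 2 replicates each. Each thymus replicate was sequenced on 2 Illumina instruments, GAII and HiSeq, and the other cells on HiSeq only. No group was treated or genetically altered. Thymus differs from the other 3 groups in tissue, strain, culture and sequencing instruments together, so that these cannot be told apart. None of the 4 groups is a muscle tissue or muscle cell line. No expression values were used here, so the labelled cell types were not checked against marker genes. Each cell type has 1 consensus call per fragment end. Values of single replicates and reads per end were not used here, so the depth is unknown, no error between replicates can be given and no test was made.

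The proteins of the MyoD family are basic helix-loop-helix (bHLH) transcription factors that pair with widely expressed E proteins and switch on the genes of skeletal muscle. Myf5 and MyoD, the product of *Myod1*, commit precursor cells to the muscle lineage. Myogenin, the product of *Myog*, acts later and drives myoblasts to differentiate and fuse, whereas Myf6, also called MRF4, has been assigned roles at both steps and is the main family member in mature fibres. In mouse *Myf5* and *Myf6* lie side by side and share a large stretch of regulatory DNA, while *Myod1* and *Myog* stand on chromosomes of their own. The chromocenters to which PADs attach are clusters of the satellite repeats that flank the centromeres, packed as constitutive heterochromatin.

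*Myf5* lay on Chromosome 10 from 106919964 to 106923190 and *Myf6* from 106929916 to 106931785, both on the minus strand. *Myod1* lay on Chromosome 7 from 53631844 to 53634462 and *Myog* on Chromosome 1 from 136186581 to 136189124, both on the plus strand (mm9, GENCODE vM1). The genes are short, between 1870 bp for *Myf6* and 3227 bp for *Myf5*, and their calls rest on few fragment ends. *Myf5* held 1 called end in its body, in the 3′ untranslated exon at 0.75 kb from its midpoint. *Myf6*, *Myod1* and *Myog* held 0, and were called from the intergenic ends on either side.

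The fragment ends that bracket *Myf6*, *Myod1* and *Myog* are shown because they carry the calls of these genes, all on the plus strand of mm9, 5′ to 3′, with the MfeI site (CAATTG) and the NlaIII site (CATG) that bound each end in capitals. The ends shown for *Myod1* and *Myog* lie at the nearest MfeI sites on both sides of the gene. These sites are 18.0 kb apart for *Myod1* and 7.79 kb for *Myog*. For *Myf6* they are 14.2 kb apart, and the end shown lies at the left site. The end at the right site carries no call. Chromatin was also cut with ApoI, whose sites were not mapped here, so gene and end need not share a restriction fragment.
Myf6 left end, chr10:106928104-106928169: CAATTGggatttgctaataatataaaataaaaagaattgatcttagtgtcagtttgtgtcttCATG
Myod1 left end, chr7:53618112-53618180: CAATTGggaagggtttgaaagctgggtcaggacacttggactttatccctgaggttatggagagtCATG
Myod1 right end, chr7:53635854-53636114: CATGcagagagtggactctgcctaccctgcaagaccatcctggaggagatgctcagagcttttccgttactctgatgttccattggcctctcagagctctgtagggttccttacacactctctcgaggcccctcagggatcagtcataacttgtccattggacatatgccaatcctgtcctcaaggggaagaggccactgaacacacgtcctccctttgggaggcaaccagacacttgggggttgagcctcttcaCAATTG
Myog left end, chr1:136183037-136183091: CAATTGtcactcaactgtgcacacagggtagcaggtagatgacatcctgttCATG
Myog right end, chr1:136190580-136190830: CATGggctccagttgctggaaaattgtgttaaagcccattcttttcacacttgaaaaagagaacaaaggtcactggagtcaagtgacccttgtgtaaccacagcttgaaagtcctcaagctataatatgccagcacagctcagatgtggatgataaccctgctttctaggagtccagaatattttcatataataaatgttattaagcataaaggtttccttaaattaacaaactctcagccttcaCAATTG
These ends measured between 55 and 261 bases and none overlapped an annotated gene.

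The 2 fragment ends on which the AC calls change between *Myf5* and *Myf6* are shown because the difference between these genes rests on them. They are the ends on both sides of a single MfeI site, so that the last bases of the first are the first bases of the second.
AC border, PAD side, chr10:106927336-106927607: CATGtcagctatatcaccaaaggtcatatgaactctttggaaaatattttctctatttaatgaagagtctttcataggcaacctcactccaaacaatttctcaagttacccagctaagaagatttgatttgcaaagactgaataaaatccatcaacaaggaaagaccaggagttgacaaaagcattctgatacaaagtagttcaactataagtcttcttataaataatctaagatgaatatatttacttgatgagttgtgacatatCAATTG
AC border, non-PAD side, chr10:106927602-106927865: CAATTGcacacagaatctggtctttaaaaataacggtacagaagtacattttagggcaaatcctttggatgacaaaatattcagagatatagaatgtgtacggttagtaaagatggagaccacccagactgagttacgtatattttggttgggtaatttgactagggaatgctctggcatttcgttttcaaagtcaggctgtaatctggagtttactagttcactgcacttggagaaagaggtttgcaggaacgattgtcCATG
The first was called PAD in all 4 cell types. The second was called PAD in ESC, NPC and thymus and non-PAD in AC.

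Calls differed between NPC and the other cell types at many ends. NPC had the same call as another cell type at 66.4% of fragment ends for AC, 68.0% for ESC and 53.3% for thymus, while the pairs among the other 3 cell types shared 67.7% to 77.5%. PADs also covered more of the genome in NPC, 68.0% of the called sequence against 48.4% to 52.5% in the others. The agreement of NPC with ESC was thus close to that of ESC with thymus, and the lowest agreement was between NPC and thymus. The patterns of calls are given with and without NPC.

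By midpoint, 2 of the 4 members lay in PADs in ESC, 4 in NPC, 1 in AC and 2 in thymus. Of all protein-coding genes, 46.5% lay in PADs in ESC, 68.5% in NPC, 34.9% in AC and 26.1% in thymus. With only 4 genes, of which 2 are neighbours, these counts are not set against the shares as a result. By gene, *Myf5* was in a PAD in every cell type. *Myf6* was in a PAD in ESC, NPC and thymus and in a non-PAD in AC. *Myod1* and *Myog* were each in a PAD in NPC and in a non-PAD in ESC, AC and thymus.

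These patterns are not equally frequent among genes. A PAD call in all 4 cell types was found for 3295 genes, 14.8% of those placed. The pattern of *Myf6*, PAD in ESC, NPC and thymus and non-PAD in AC, was found for 311 genes or 1.39%, and that of *Myod1* and *Myog*, PAD in NPC only, for 5337 genes or 23.9%. Without NPC, *Myod1* and *Myog* were non-PAD in each of the 3 remaining cell types, as were 9816 genes (44.0%), and *Myf5* was PAD in each of them, as were 3849 genes (17.2%). The pattern of *Myf6* without NPC, PAD in ESC and thymus and non-PAD in AC, was found for 618 genes (2.77%).

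**Figure D1:**
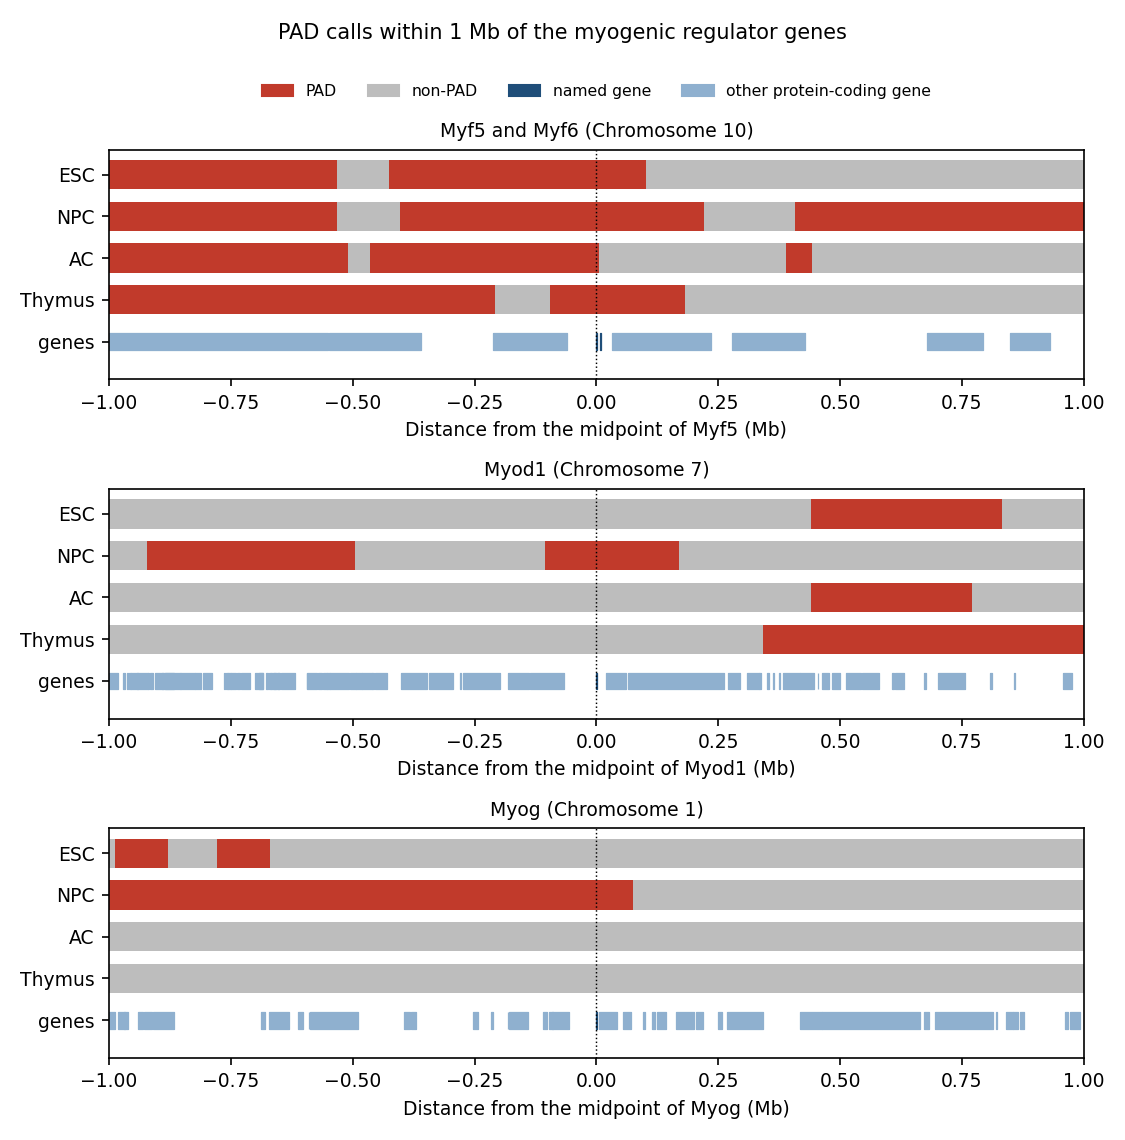
Calls along 1 Mb on either side of *Myf5* (top), *Myod1* (middle) and *Myog* (bottom), with a row of PAD (red) and non-PAD (gray) domains for each cell type and a row of gene bodies. The x axis is the distance from the gene midpoint in Mb, and the dotted midline crosses red in all 4 rows at *Myf5* and only in the NPC row at *Myod1* and *Myog*.

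*Myf5*, whose product is the first of the family to appear in the mouse embryo, was in a PAD of 526 kb and 119 fragment ends in ESC, from 106496339 to 107022621. In NPC its PAD measured 624 kb with 132 ends, from 106519409 to 107143328. In AC it measured 470.3 kb with 118 ends, from 106457198 to 106927469. The thymus PAD was the smallest of the 4, at 276 kb with 64 ends, from 106825895 to 107102376. All 4 PADs were of ordinary size for their cell type: of the PADs of the same cell type, 54.0% were smaller in ESC, 40.8% in NPC, 47.4% in AC and 30.7% in thymus. The stretch around *Myf5* that was PAD in all 4 cell types was far shorter than any of them, 102 kb with 32 fragment ends, and *Myf5* was the only gene placed in it. Its left edge was set by thymus and its right edge by AC.

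*Myf5* did not sit in the middle of these PADs. Its nearest border was to the right in ESC (101 kb), NPC (222 kb) and AC (5.89 kb), and to the left in thymus (95.7 kb). In ESC 16.4% of the genes in PADs were closer to a border, in NPC 19.8%, in AC 1.10% and in thymus 15.7%. The median gene in a PAD was 466 kb, 744 kb, 481 kb and 500.3 kb from a border in ESC, NPC, AC and thymus. The AC value therefore stands apart from the other 3 for *Myf5*, and 1.80% of all genes in AC PADs were within 10 kb of a border.

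*Myf6*, the neighbour of *Myf5*, shared the domain of *Myf5* in ESC, NPC and thymus, where its nearest border was 91.8 kb, 212 kb and 105 kb away. In AC it was at the left edge of a non-PAD of 382 kb with 80 fragment ends, from 106927469 to 107309788. Its midpoint was 3.38 kb inside that non-PAD and 379 kb from its far border. Of the genes in AC non-PADs, 0.289% were closer to a border, and 0.908% were within 10 kb of one. The median distance of a gene in an AC non-PAD was 807 kb. The stretch with the calls of *Myf6*, from the AC border to the right border of the ESC PAD at 107022621, measured 95.2 kb with 17 fragment ends and held *Myf6* alone.

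The bodies of *Myf5* and *Myf6* are 6.73 kb apart and their midpoints 9.27 kb. The AC border at 106927469 fell in this intergenic gap, 4.28 kb from the body of *Myf5* and 2.45 kb from that of *Myf6*. It lay between fragment ends whose starts are 0.266 kb apart. This is the spacing of the ends and not the precision of the border. The study states that differences between cells limit how exactly PAD borders can be defined. It reads the profiles at the level of chromosomal domains. To the left of the AC border the 6 nearest ends before the PAD side end were PAD in all 4 cell types. To its right the ends at 106927602, 106928088, 106928104 and 106948258 were non-PAD in AC and PAD elsewhere. The nearest MfeI sites on both sides of the midpoint of *Myf5* are 4.07 kb apart. Neither fragment end inside this stretch carried a call. *Myf5* took its call from the ends beside this stretch, of which the left one starts in its 3′ untranslated exon. The 20.2 kb around *Myf6* between 106928104 and 106948258 held no called end.

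**Figure D2:**
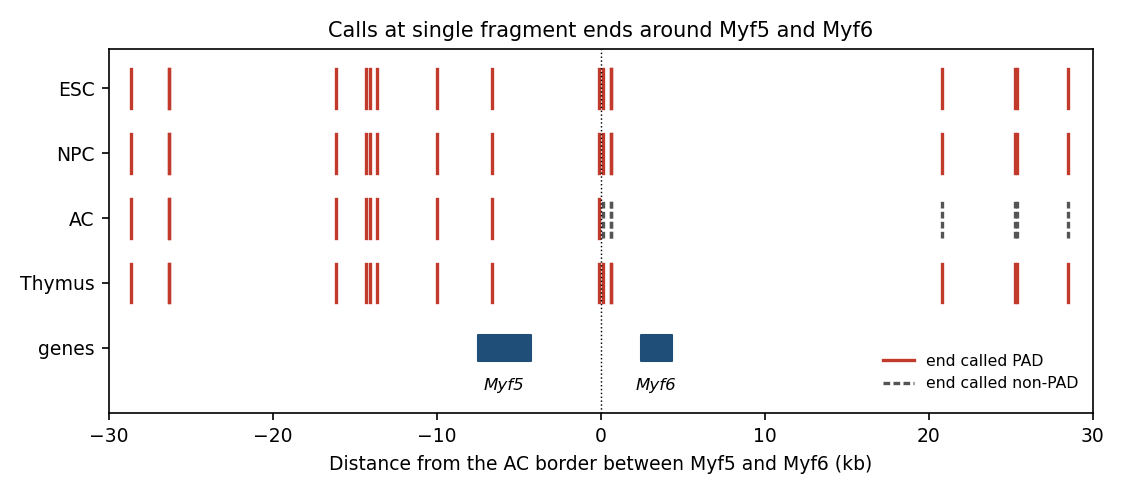
Calls at single fragment ends within 30 kb of the AC border between *Myf5* and *Myf6*, with the cell types as rows and the distance from that border in kb on the x axis. Solid red marks are ends called PAD and dashed gray marks ends called non-PAD. The marks change colour in the AC row only, between *Myf5* on the left and *Myf6* on the right, with the first non-PAD end 0.266 kb from the last PAD end.

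Neighbouring genes with different calls were rare. Of 5614 pairs of neighbouring protein-coding genes with midpoints within 20 kb, 36 had different calls in AC (0.641%), against 54 in ESC, 35 in NPC and 26 in thymus. *Myf5* and *Myf6* were 1 of the 36 pairs. The AC calls combine 2 replicates, so that every end at which these disagreed was decided by the pooled reads, and how far the border would move between replicates was not tested.

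The AC border had no counterpart in another cell type. The nearest border of the same direction, PAD to non-PAD from left to right, was 95.2 kb away in ESC, 175 kb in thymus and 216 kb in NPC. All 3 of these counterparts lay to the right, in the body of *Ptprq*, a receptor-type tyrosine phosphatase of inner ear hair cells: at 107022621 in ESC, 107102376 in thymus and 107143328 in NPC. On the left side the edges were closer to each other. The left border of the *Myf5* PAD was at 106496339 in ESC, 23.1 kb from that of NPC and 39.1 kb from that of AC, and these fell in the body of *Acss3*, an acyl-CoA synthetase gene. The PAD before it ended at 106389322 in both ESC and NPC, at the same fragment ends, and 23.4 kb further right in AC. In thymus the left border was at 106825895, in the body of *Lin7a*, a scaffold gene, and 306 kb or more from those of the other cell types.

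The genes beside *Myf5* and *Myf6* did not share their calls throughout. *Lin7a*, 136 kb to the left of *Myf5*, was PAD in ESC, NPC and AC and non-PAD in thymus. *Acss3*, 455 kb to the left, was non-PAD in ESC and NPC and PAD in AC and thymus. *Ppfia2*, a liprin gene 785 kb to the left, was PAD in all 4 cell types. To the right, *Ptprq* (134 kb) was PAD in NPC and thymus, *Otogl* (353 kb) was non-PAD in all 4, and *Ppp1r12a*, a myosin phosphatase subunit 726 kb from *Myf6*, was PAD in NPC only. The PADs of *Myf5* thus held 3 genes in ESC (*Lin7a*, *Myf5*, *Myf6*), 4 in NPC (those and *Ptprq*), 3 in AC (*Acss3*, *Lin7a*, *Myf5*) and 3 in thymus (*Myf5*, *Myf6*, *Ptprq*). *Otogl*, which codes for a protein of the inner ear, and *Ptprq* shared the AC non-PAD of *Myf6*.

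The flanking domains differed in size between cell types. To the left, a non-PAD of 107 kb in ESC, 130.1 kb in NPC, 44.5 kb in AC and 112 kb in thymus separated the PAD of *Myf5* from the next. To the right, the non-PAD measured 1215 kb in ESC, 185 kb in NPC, 382 kb in AC and 1258 kb in thymus. In NPC and AC the right-hand non-PAD was followed by a further PAD within 1 Mb of *Myf5*, beginning at 107328151 in NPC and 107309788 in AC, 18.4 kb apart.

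*Myod1*, the gene of the MyoD protein that can turn fibroblasts into muscle cells, lay in non-PADs of several Mb in 3 cell types. In ESC this non-PAD measured 3326 kb with 388 fragment ends and 155 genes, from 50747388 to 54073139. In AC it measured 2343 kb with 257 ends and 109 genes, from 51729297 to 54072579, and in thymus 3356 kb with 392 ends and 157 genes, from 50618964 to 53975183. These were large for their kind, with 94.5%, 84.5% and 85.9% of the non-PADs of ESC, AC and thymus being smaller. *Myod1* was in the right-hand part of each, 440.0 kb, 439 kb and 342 kb from the right border. Of the genes in non-PADs, 47.0% in ESC, 32.9% in AC and 19.2% in thymus were closer to a border.

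The right border of the *Myod1* non-PAD was nearly the same in ESC and AC, 0.56 kb apart, and 98.0 kb from the ESC one in thymus. In NPC the gene was in a small PAD of 274 kb with 26 fragment ends, from 53528164 to 53802491. Of the NPC PADs 21.6% were smaller. *Myod1* was 105 kb from its left border and 169 kb from its right border, and 9.85% of the genes in NPC PADs were closer to one. Neither of these NPC borders had a border of the same direction within 447 kb in another cell type. The non-PADs around this PAD measured 391 kb on the left and 2007 kb on the right.

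The NPC PAD of *Myod1* held 4 genes, and all 4 had the same calls in the other cell types too. They were *Otog*, a gene of the inner ear with 102 kb between the midpoints, *Myod1*, *Kcnc1*, a voltage-gated potassium channel gene of neurons at 40.2 kb, and *Sergef* at 164 kb. The borders fell inside the outer genes, the left in *Otog* and the right in *Sergef*. Beyond them *Ush1c* (161 kb), a scaffold gene of hair cells, *Abcc8* (236 kb), which codes for the sulfonylurea receptor, and *Tph1* (282 kb), a tryptophan hydroxylase gene, were non-PAD in all 4 cell types. Within 50 kb of *Myod1* all 13 fragment ends were PAD in NPC and none in the other cell types. Within 250 kb 47.3% of 55 ends were PAD in NPC, and still none elsewhere.

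*Myog*, the gene of myogenin, also lay in large non-PADs in ESC, AC and thymus. In ESC the non-PAD measured 3055 kb with 380 fragment ends and 58 genes, from 135518753 to 138573639. In AC it measured 7528 kb with 1066 ends and 113 genes, from 132240314 to 139768327, and in thymus 8617 kb with 1255 ends and 114 genes, from 131099281 to 139716521. Only 13 of 1034 AC non-PADs and 25 of 838 thymus non-PADs were larger. *Myog* was 669 kb from a border in ESC, where 59.7% of the genes in non-PADs were closer to one. In AC and thymus it was 3580.5 kb and 3529 kb from a border, and 91.9% and 81.3% of the genes in non-PADs were closer. No border lay within 1 Mb of *Myog* in AC or thymus.

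In NPC *Myog* was in a PAD of 5618 kb with 866 fragment ends and 71 genes, from 130646279 to 136263894, larger than 94.9% of the NPC PADs. It sat at the far right of it, 98.6% along its length and 76.0 kb from the right border, and 7.43% of the genes in NPC PADs were closer to a border. That border was 745 kb from the nearest border of the same direction in ESC, 4024 kb from that of AC and 4182 kb from that of thymus. The stretch in which the calls were those of *Myog*, PAD in NPC and non-PAD in the other 3, measured 745 kb with 89 ends and held 16 genes. Within 50 kb of *Myog* all 13 fragment ends were PAD in NPC and none in the others, and within 250 kb 67.2% of 61 ends were PAD in NPC.

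The neighbours of *Myog* had its calls up to the NPC border. To the left these were *Adora1* (73.9 kb), an adenosine receptor gene, *Mybph* (93.9 kb), which codes for a myosin-binding protein of muscle, and *Chi3l1* (105 kb), a chitinase-like gene. To the right they were *Ppfia4* (23.6 kb), a liprin gene, and *Tmem183a* (62.8 kb). The next gene, *4933406M09Rik* (97.2 kb), was beyond the border and non-PAD in all 4 cell types. Genes of contractile muscle on the same side shared the large non-PADs of *Myog* but not its NPC PAD: *Tnni1*, the slow skeletal troponin I gene, and *Cacna1s*, the calcium channel gene of the muscle triad, were non-PAD in all 4 cell types. In NPC they were 845 kb and 553 kb from a border, in a non-PAD of 2272 kb that began where the PAD of *Myog* ended.

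**Figure D3:**
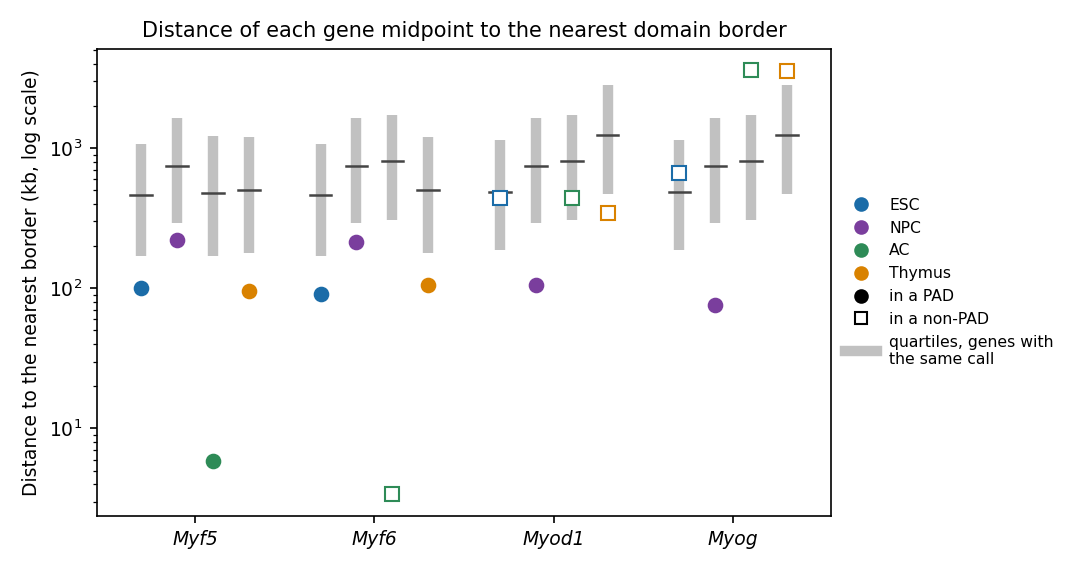
Distance of the midpoint of each member to the nearest border in kb (log scale) in the 4 cell types, with filled circles for PADs and open squares for non-PADs. Gray bars give the quartiles and black lines the medians of all protein-coding genes with the same call. *Myf5* at 5.89 kb and *Myf6* at 3.38 kb in AC are the lowest points, and *Myog* at 3580.5 kb in AC is the highest.

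Set side by side, the regions of the members differed in gene density and base composition. The 1 Mb around *Myf5* and *Myf6* held 5 other genes each, with a GC content of 38.4%, whereas that around *Myod1* held 24 other genes at 48.7% and that around *Myog* 20 at 47.4%. The median protein-coding gene had 15 other genes (quartiles 8 and 27) and a GC content of 44.1% (41.5% and 46.8%). The region of *Myf5* and *Myf6* was thus gene-poor and AT-rich among genes, and those of *Myod1* and *Myog* were above the median on both measures. Fragment ends were denser around *Myf5* (234) and *Myf6* (231) than around *Myod1* (117) and *Myog* (117), against a median of 134. Their part in the calls was not tested.

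The share of PAD ends in wider windows differed as well. Within 500 kb of *Myf5*, PAD ends made up 50.9% in ESC, 61.5% in NPC, 57.7% in AC and 60.7% in thymus. Around *Myod1* they made up 5.98% in ESC, 23.9% in NPC, 7.69% in AC and 22.2% in thymus. Around *Myog* they made up 56.4% in NPC and 0% in the other cell types. *Myf5* and *Myf6* were thus in a region where PADs and non-PADs alternate in every cell type, with 3 to 5 borders within 1 Mb of *Myf5* in each. Within 1 Mb of *Myod1* there were 2 borders in ESC, 4 in NPC, 2 in AC and 1 in thymus, and within 1 Mb of *Myog* 4 in ESC and 1 in NPC.

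In AC the narrow windows around the 2 neighbours straddled the border. Within 50 kb of *Myf5* 65.4% of 26 ends and within 50 kb of *Myf6* 59.3% of 27 ends were PAD in AC, whereas both were at 100% in ESC, NPC and thymus. By the majority of these ends *Myf6* would be called PAD in AC, as it would within 250 kb (56.5% of 108 ends). The AC call of *Myf6* thus depends on whether the gene or a window around it is read. Within 250 kb *Myod1* would be called non-PAD in NPC. The other calls of the 16 were the same by every placement that was tried.

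Other genes of the myogenic program were taken from 7 lists with 66 genes in all, which were chosen with results on these data known. Of the 66, 27 (40.9%) were in PADs in ESC, 47 (71.2%) in NPC, 19 (28.8%) in AC and 13 (19.7%) in thymus. The shares of all protein-coding genes were 46.5% in ESC, 68.5% in NPC, 34.9% in AC and 26.1% in thymus. The differences between the lists and these shares amount to few genes and were not tested, so no direction is read from them. Several of the 66 genes share domains, the *Myh* genes of Chromosome 11 among them, and are not separate observations. The pattern of *Myf5*, PAD in all cell types, was found for 7 of the 66, that of *Myod1* and *Myog* for 16, and that of *Myf6* for 0. Among all protein-coding genes these patterns had shares of 14.8%, 23.9% and 1.39%. A further 16 of the 66 were in non-PADs in all 4 cell types, as were 20.1% of all protein-coding genes. Without NPC the numbers were 7 for the pattern of *Myf5*, 32 for that of *Myod1* and *Myog*, and 1 (*Tcf21*) for that of *Myf6*. The shares of all protein-coding genes were then 17.2%, 44.0% and 2.77%.

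Among the 14 genes that act upstream of the family, 5 were in PADs in ESC, 8 in NPC, 3 in AC and 6 in thymus. Of all protein-coding genes, 46.5%, 68.5%, 34.9% and 26.1% were in PADs in these cell types. *Pax3*, which drives the migration of limb muscle precursors, shared the calls of *Myf5* and was 327 kb, 592 kb, 1102 kb and 297 kb from a border in ESC, NPC, AC and thymus. *Eya1*, a transcriptional cofactor gene, and the homeobox gene *Meox2* also had PAD calls throughout. *Pax7*, the marker of satellite cells, had those of *Myod1*: it was PAD in NPC, 845 kb from a border, and lay in non-PADs of 6120.1 kb in ESC, 23832 kb in AC and 20562 kb in thymus. *Eya2* had the same calls as *Pax7*. *Tbx1* and *Tcf21*, regulators of head muscle, were PAD in ESC and non-PAD in AC.

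Of the 7 partners and cofactors 0 were in PADs in ESC, 4 in NPC, 2 in AC and 1 in thymus. *Tcf3*, which codes for the E proteins E12 and E47 that dimerize with the family, and *Mef2d*, a MADS box cofactor gene, were PAD in NPC only. *Tcf12*, another E protein gene, and *Mef2c* were non-PAD in ESC and PAD in AC. Of the 9 inhibitors 2 were in PADs in ESC, 6 in NPC, 2 in AC and 2 in thymus. Both lists are short, and the shares of all protein-coding genes were 46.5%, 68.5%, 34.9% and 26.1% in the same order. *Mstn*, which codes for the growth inhibitor myostatin, was PAD throughout. *Id1* and *Id4*, whose products sequester E proteins, and *Hdac4*, a repressor of Mef2, were PAD in NPC only, and *Hdac5* and *Twist1* changed between ESC and AC in opposite directions, *Hdac5* to non-PAD and *Twist1* to PAD.

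The genes that the family switches on were spread over the patterns. Of 4 fusion and adhesion genes, 2 were in PADs in ESC, 4 in NPC, 1 in AC and 0 in thymus, with *Tmem8c*, the fusogen gene now called myomaker, and *Ncam1* in PADs in NPC only and *Cdh15*, the M-cadherin gene, non-PAD in AC and PAD in ESC. Of the 6 genes of the neuromuscular receptor, 5 were in PADs in ESC, 6 in NPC, 6 in AC and 0 in thymus. Both lists are short, and the shares of all protein-coding genes were 46.5%, 68.5%, 34.9% and 26.1% in the same order. *Chrna1*, *Chrnb1*, *Chrnd*, *Chrne* and *Chrng*, the subunits of the muscle acetylcholine receptor, had the same calls as each other, and non-PAD calls in thymus only. They lie on few chromosomes, with *Chrnd* and *Chrng* in one and the same domain in each cell type and *Chrnb1* and *Chrne* in one domain in ESC, NPC and thymus, so that the 5 genes are not separate observations. *Musk*, the receptor kinase of the synapse, differed from them in ESC, where it was non-PAD and 13.8 kb from a border.

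Of the 18 contractile and cytoskeletal genes 9 were in PADs in ESC, 14 in NPC, 3 in AC and 3 in thymus. The shares of all protein-coding genes were 46.5%, 68.5%, 34.9% and 26.1% in the same order. *Actc1*, the cardiac actin gene of embryonic muscle, and *Ttn*, the titin gene, had the calls of *Myf5*. *Acta1*, *Des*, *Mylpf*, *Tnni2* and *Tnnt3* had those of *Myod1* and *Myog*. The myosin heavy chain genes *Myh1*, *Myh2*, *Myh3*, *Myh4* and *Myh8*, which lie together on Chromosome 11, were PAD in ESC and NPC and non-PAD in AC and thymus. They shared a domain of 427 kb in ESC, 938 kb in NPC, 2318 kb in AC and 1117 kb in thymus, and count as 1 locus rather than 5. *Tnnt1*, the slow troponin T gene, had their calls as well.

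Of the 8 genes of calcium handling and energy supply 4 were in PADs in ESC, 5 in NPC, 2 in AC and 1 in thymus. The shares of all protein-coding genes were 46.5%, 68.5%, 34.9% and 26.1% in the same order. *Cav3*, which codes for the caveolin of muscle, was PAD throughout, *Pygm*, the muscle phosphorylase gene, was PAD in NPC only, and *Ryr1* and *Atp2a1*, which release and take up calcium, were PAD in ESC and non-PAD in AC. In all, 12 of the 66 genes were PAD in ESC and non-PAD in AC, as *Myf6* was, and 4 (*Tcf12*, *Mef2c*, *Twist1* and *Musk*) were the reverse. Only 1 of the 12, *Tcf21*, was also PAD in thymus like *Myf6*. The 12 include *Myh1*, *Myh2*, *Myh3*, *Myh4* and *Myh8*, which share a domain in every cell type. Both changes were about as frequent among all protein-coding genes: of 22329, 3846 were PAD in ESC and non-PAD in AC, and 1256 were the reverse.

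**Figure D4:**
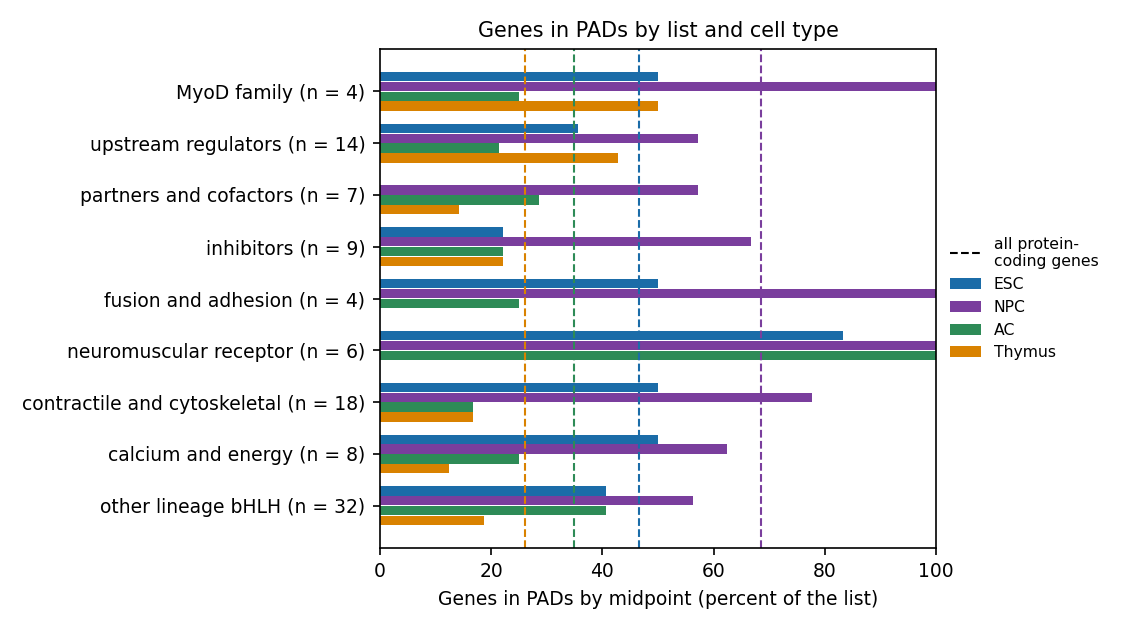
Percent of the genes of each list in PADs by midpoint, with 1 bar per cell type and dashed lines for all protein-coding genes (46.5% in ESC, 68.5% in NPC, 34.9% in AC and 26.1% in thymus). The neuromuscular receptor genes reach 83.3% in ESC and 100% in NPC and AC but 0% in thymus, and several of the 6 genes share domains.

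By their distances to the nearest border, the genes on other chromosomes most like each member were found among those with the same 4 calls, by the summed absolute difference of log10 distances over the 4 cell types. For *Myf5* this was *Pde8b*, a phosphodiesterase gene on Chromosome 13, with a sum of 0.487 among 3180 genes compared, followed by *4921524L21Rik* (0.995) and *Lca5* (1.03). *Pde8b* was 217 kb, 248 kb, 6.49 kb and 82.3 kb from a border in ESC, NPC, AC and thymus, and so also close to an AC border. For *Myf6* the nearest of 292 genes was *Cd209d* (1.11), at 10.7 kb from an AC border, followed by *Gm17498* (1.56) and *Cd209e* (1.57). The distances of *Cd209d* and *Cd209e* differ by the same amount in every cell type, so these are not separate counterparts. Those of *Lca5* and *Gm17498*, both on Chromosome 9, differ by the same amount in ESC, NPC and thymus. These 2 genes are therefore not separate counterparts of *Myf5* and *Myf6* either.

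*Myod1* and *Myog* had counterparts with smaller sums. For *Myod1* these were *Ncrna00086* (0.0934 among 5045 genes) and *Zfp449* (0.114) on Chromosome X and *Agpat4* (0.212) on Chromosome 17. For *Myog* they were *P2rx4* (0.0465 among 4965 genes), *Gm10064* (0.149) and *P2rx7* (0.276), all on Chromosome 5, where *P2rx4* and *P2rx7* code for ATP-gated ion channels. *P2rx4* was 704 kb from a border in ESC, 74.9 kb in NPC, 3488 kb in AC and 3475 kb in thymus. The distances of *P2rx4*, *Gm10064* and *P2rx7* differ from each other by the same amounts in every cell type. The same is true of *Ncrna00086* and *Zfp449*, so that neither set holds separate counterparts.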

How the data were processed

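Sat4C was performed on thymus, ESC, NPC and AC. Chromatin was cut with ApoI and MfeI and ligated, then cut with NlaIII and ligated again. The authors mapped reads to a reduced mm9 that held 4C fragment-end sequences only and no Y chromosome (aligner not given in the sources used here), sorted reads per end into classes, fitted a 2-state HSMM to each replicate (mhsmm in R) and deposited a majority call per cell type, ties being settled by a virtual replicate of the pooled reads. The deposited values are the words PAD and nPAD.

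Domains were built from consecutive ends with equal calls, with borders at the middle between the starts of ends with different calls, as in the study's methods. Of 22380 protein-coding genes of GENCODE vM1 (NCBIM37, which is mm9), 22329 were placed. An MfeI or NlaIII site was found at the start of 97.8% of ends. Sequences came from the NCBIM37 genome. Python 3.11.15, numpy 2.4.6, pandas 2.3.3, pysam 0.24.0 and matplotlib 3.10.9 were used, and the procedures were tested on simulated calls.

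The members and lists were chosen with earlier results of these data known. Named genes were the members, up to 3 neighbours on each side, genes of domains with up to 10 genes, list genes with a member's calls or a difference between ESC and AC, and the 3 genes most like each member. Other list genes were named after their calls were seen. The calls of 1 gene of the lists are not reported here. *Hdac4* and *Tnnc1* had more than 1 entry, of which the longest was used. Alternatives were other gene placements, runs under 5 ends absorbed, borders at outer ends and gaps over 100 kb ending a domain. Intervals as deposited and NPC left out were added after seeing the data.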

Additional observations from a re-analysis of the deposited data

How the results depend on the processing

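Of the 16 calls (4 members in 4 cell types), 0 changed with genes placed by transcription start site or any overlap, with runs under 5 fragment ends absorbed, with borders at outer fragment ends, or with intervals as deposited. By the majority of fragment ends within 50 kb 1 call changed and within 250 kb 2 did. The members in PADs in AC became 2 in both windows in place of 1, through *Myf6*, since the windows take in the PAD side of the border beside it. Within 250 kb the members in PADs in NPC became 3, through *Myod1*. The 162 other recomputed values, with domain sizes and border distances among them, stayed within 1.5 times of their value. The other gene model could not be used, since that table is of another build. No paired analysis was possible because the calls used here are 1 consensus per cell type. Values of single replicates were not analysed here, so no replicate was left out and depth was not examined.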

Other observations

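Of 32 bHLH genes that specify other lineages, 13 (40.6%) were in PADs in ESC, 18 (56.25%) in NPC, 13 (40.6%) in AC and 6 (18.75%) in thymus. The shares of all protein-coding genes were 46.5%, 68.5%, 34.9% and 26.1%. PAD calls in all 4 cell types, as for *Myf5*, were found for *Neurod1* (neurons and islets), *Hand2* (heart and limb), *Ptf1a* (pancreas) and *Msgn1* (presomitic mesoderm). *Ptf1a* was 6.32 kb from a border in AC, about as close as *Myf5* there, but 5829 kb from one in ESC. The calls of *Myod1* and *Myog* were found for 5, *Neurog1* and *Neurog3* (neural and endocrine progenitors), *Atoh7* (retinal ganglion cells), *Scx* (tendon) and *Twist2* (dermis). Among all protein-coding genes 14.8% had the calls of *Myf5* and 23.9% those of *Myod1* and *Myog*. None of the 32 had the calls of *Myf6*, which 1.39% of all protein-coding genes had, and 12 were non-PAD in all 4 cell types, against 20.1% of all. Without NPC the calls of *Myf5* were found for 5 of the 32, those of *Myod1* and *Myog* for 17 and those of *Myf6* for 0. The shares of all protein-coding genes with these calls were 17.2%, 44.0% and 2.77%.

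Between ESC and AC, *Atoh8* and *Figla* (oocytes) were PAD in ESC and non-PAD in AC, and *Olig3* (dorsal spinal cord) and *Ferd3l* were the reverse. *Neurod4* was PAD in ESC, AC and thymus and non-PAD in NPC, 271 kb from a border there, and was picked out after its calls were seen.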
